A study of Mus musculus with 2 samples.

Results

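The 36 genes described here are cell cycle genes, 36 of the 21855 genes in the deposited matrix, and all 36 were found in it. They form 2 lists by the phase in which their products act. The S list holds 13 genes of DNA replication (Mcm2 to Mcm7, Pcna, Rrm1, Rrm2, Gins2, Cdc6, Uhrf1 and Tyms). The G2/M list holds 23 genes of entry into mitosis and chromosome segregation (Mki67, Top2a, Cdk1, Ccnb1, Ccnb2, Ccna2, Birc5, Bub1, Bub1b, Aurka, Aurkb, Plk1, Cenpe, Cenpf, Cenpa, Tpx2, Kif11, Kif20b, Nusap1, Ckap2l, Hmmr, Ube2c and Cdc20). Genes were chosen by name, and each list was summed per cell. The cells come from kidneys of mice labelled wild type: 1 library of control kidney and 1 library of kidney with nephropathy induced by folic acid (FA), which injures tubule cells at high dose. The sources used here give no strain, age, FA dose, time after FA or number of animals for either library. Each group is 1 library, so no difference could be checked against replicates and no test across samples was possible. All intervals are 95% intervals that cover counting error only.

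A dividing cell copies its DNA in S phase and separates the copies in mitosis, and the genes for each step are transcribed in waves. E2F factors drive the genes of replication at the passage from G1 to S, whereas the MuvB complex, with B-Myb and FoxM1, drives the mitotic genes through a DNA element called the CHR. Most cells of the adult kidney are not in cycle; after injury, surviving tubule cells and infiltrating or resident leukocytes can enter it.

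Words of these elements were searched in the promoters of the members. The stretches below were picked because they hold an E2F or a CHR word, so they are examples and do not themselves compare the 2 lists. Of the 36 members, 31 had an entry in the RefSeq promoter table (build GRCm38.p6, windows of 250 bases before and 50 bases after the gene start), with 33 windows in all. An E2F element was searched as TTTCCCGC, TTTGGCGC or TTCCCGCC, a CHR as TTTGAA or TTCGAA, and a CCAAT box as CCAAT, each on both strands. The first and the last E2F words can overlap each other, and a promoter was counted once per element. The S list is shown by the members whose 120 bases before the start held an E2F word: Mcm6 (chr1:128359706-128359825, minus strand), Rrm1 (chr7:102441575-102441694, plus strand) and Uhrf1 (chr17:56303217-56303336, plus strand). Capitals mark E2F words and CCAAT boxes on either strand.
Mcm6: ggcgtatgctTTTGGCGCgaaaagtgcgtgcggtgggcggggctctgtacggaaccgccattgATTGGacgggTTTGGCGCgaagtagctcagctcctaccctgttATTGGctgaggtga
Rrm1: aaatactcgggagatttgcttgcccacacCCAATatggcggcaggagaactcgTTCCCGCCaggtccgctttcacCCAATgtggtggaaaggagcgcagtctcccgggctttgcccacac
Uhrf1: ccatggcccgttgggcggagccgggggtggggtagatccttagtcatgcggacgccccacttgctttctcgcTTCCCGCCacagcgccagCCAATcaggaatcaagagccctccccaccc
The G2/M list is shown by the 4 members with most UMIs (unique molecular identifiers, the molecules counted) among those with a CHR word in the same stretch: Mki67 (chr7:135716380-135716499, minus strand), Top2a (chr11:99024190-99024309, minus strand), Ube2c (chr2:164769809-164769928, plus strand) and Cdk1 (chr10:69352913-69353032, minus strand). Capitals mark CHR words and CCAAT boxes on either strand.
Mki67: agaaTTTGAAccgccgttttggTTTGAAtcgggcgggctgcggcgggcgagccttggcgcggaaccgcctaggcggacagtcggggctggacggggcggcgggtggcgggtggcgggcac
Top2a: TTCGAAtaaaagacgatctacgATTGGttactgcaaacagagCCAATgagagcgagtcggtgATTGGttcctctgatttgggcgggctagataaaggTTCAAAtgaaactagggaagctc
Ube2c: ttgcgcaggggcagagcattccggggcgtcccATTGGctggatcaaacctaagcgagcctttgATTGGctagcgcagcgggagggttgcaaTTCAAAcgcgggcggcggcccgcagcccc
Cdk1: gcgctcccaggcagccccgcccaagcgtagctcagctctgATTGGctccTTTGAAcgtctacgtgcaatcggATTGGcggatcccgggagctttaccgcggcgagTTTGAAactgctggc
Over the full windows, a CHR word lay in 16 of the 20 G2/M windows and in 2 of the 13 S windows (Mcm2 and Mcm7), beside 19.2% of all 32851 windows in the table. An E2F word lay in 7 of the 13 S windows and in 0 of the 20 G2/M windows, beside 3.21% of all windows. CCAAT boxes did not divide the lists: 11 of the 13 S windows and 17 of the 20 G2/M windows held at least 1, beside 37.4% of all windows. A word in these windows is a match of letters and not a measured binding site.

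The control library held 9681 barcodes and the FA library 18997, of which 5807 and 13502 were kept as cells, with medians of 4758 and 2888 UMIs. Likely doublets (barcodes that look like pairs of cells) were left out, 488 in control and 2420 in FA. Unlike the clustering, their scoring did not exclude the members or other cell cycle genes, so the call could depend on the genes measured here. This step weighs on the members: those barcodes held 55.5% of the G2/M UMIs of filtered control cells and 38.8% of those of FA, against 12.5% and 29.0% of all UMIs. The libraries also differ in sex-linked genes (Xist 15 and 104149 UMIs, Ddx3y 3928 and 0 UMIs in control and FA), so that sex and treatment cannot be told apart. Both libraries shared 54 barcode sequences. Fewer cells of a type and less RNA per cell cannot be told apart in any sum over a whole library.

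Both lists were higher in the FA library, the G2/M list by far the more. Levels are given as CPM, the UMIs of a gene or list for each 1000000 UMIs of the same cells. The S list stood at 151 CPM in control and 479 in FA, a ratio of 3.18 (3.09 to 3.27). The G2/M list stood at 59.0 CPM in control and 502 in FA, a ratio of 8.51 (8.16 to 8.88). All 13 S members and all 23 G2/M members were at least 1.5-fold higher in FA, where 20.2% of the 17870 genes with 20 or more UMIs were; no member was 1.5-fold lower, where 30.2% of genes were. The median log2 ratio was 1.81 for the S list and 3.57 for the G2/M list, beside -0.10 over all genes measured. The G2/M ratio was 5.03 with likely doublets kept (116 and 583 CPM), 4.97 with every cell weighed the same and 4.69 without macrophage-like cells.

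Among the S members, the 6 subunits of the MCM helicase, which unwinds DNA at the fork, were between 2.90-fold higher (Mcm2, 7.83 CPM in control and 22.7 in FA) and 6.02-fold higher (Mcm5, 6.12 and 36.9 CPM). Mcm4 was 3.07-fold, Mcm6 3.48-fold, Mcm7 3.50-fold and Mcm3 4.16-fold higher. Cdc6, which loads that helicase onto origins, had 0.778 CPM in control and 7.39 in FA, 9.51-fold (6.60 to 14.2). Gins2, a part of the active helicase, had 3.19 and 16.5 CPM, 5.19-fold. Pcna, the sliding clamp of the polymerases, had 45.8 and 98.7 CPM, only 2.16-fold (2.05 to 2.28). The makers of deoxynucleotides were uneven. Rrm2, the regulated subunit of ribonucleotide reductase, had 1.48 CPM in control and 17.6 in FA, 11.9-fold (9.15 to 15.8), whereas its partner Rrm1 had 13.6 and 35.1 CPM, 2.58-fold. Tyms, thymidylate synthase, had 17.9 and 38.1 CPM, 2.13-fold. Uhrf1, which passes DNA methylation to the new strand, had 2.23 and 21.9 CPM, 9.79-fold. The smallest ratios of the S list were thus those of Tyms, Pcna and Rrm1, and the largest those of Rrm2, Uhrf1 and Cdc6.

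The mitotic members were higher by larger factors. Mki67, the coat protein of mitotic chromosomes, had 4.59 CPM in control and 82.2 in FA, 17.9-fold (15.4 to 20.9), and Top2a, which untangles the copied DNA, had 4.49 and 72.2 CPM, 16.1-fold. Cdk1, the kinase of mitotic entry, had 1.56 and 21.5 CPM, 13.8-fold. Its cyclins followed at 11.3-fold for Ccna2, 8.64-fold for Ccnb2 and 8.50-fold for Ccnb1. The mitotic kinases had few UMIs in control: Plk1 (20 and 378 UMIs) was 13.3-fold higher, Aurka (24 and 324) 9.47-fold and Aurkb (29 and 657) 15.9-fold, with Birc5, the survivin subunit of the Aurkb complex, 12.0-fold (3.26 and 39.0 CPM). Bub1, a kinase of the spindle checkpoint, had the largest ratio of the 36 members, 29.0 (15.6 to 60.9), from 10 UMIs in control and 413 in FA. Bub1b, of the same checkpoint, had 53 and 511 UMIs, 6.76-fold.

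Spindle and microtubule members were between 11.8-fold (Kif11) and 22.1-fold (Hmmr, 0.627 and 13.9 CPM), with Tpx2, Ckap2l and Nusap1 within that range; Kif20b was lower, at 2.96-fold (5.34 and 15.8 CPM). Ube2c, the ubiquitin-conjugating enzyme of the anaphase-promoting complex, had 1.96 and 32.0 CPM, 16.4-fold, and Cdc20, the activator of that complex, 2.03 and 8.20 CPM, 4.04-fold. Of the kinetochore members, Cenpf was 10.6-fold higher, Cenpe 5.49-fold, and Cenpa, the histone H3 variant of centromeres, had the smallest ratio of all members, 1.95 (1.78 to 2.13), from 17.4 CPM in control and 33.9 in FA. The plot of member ratios shows both lists side by side.

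**Figure D1:**
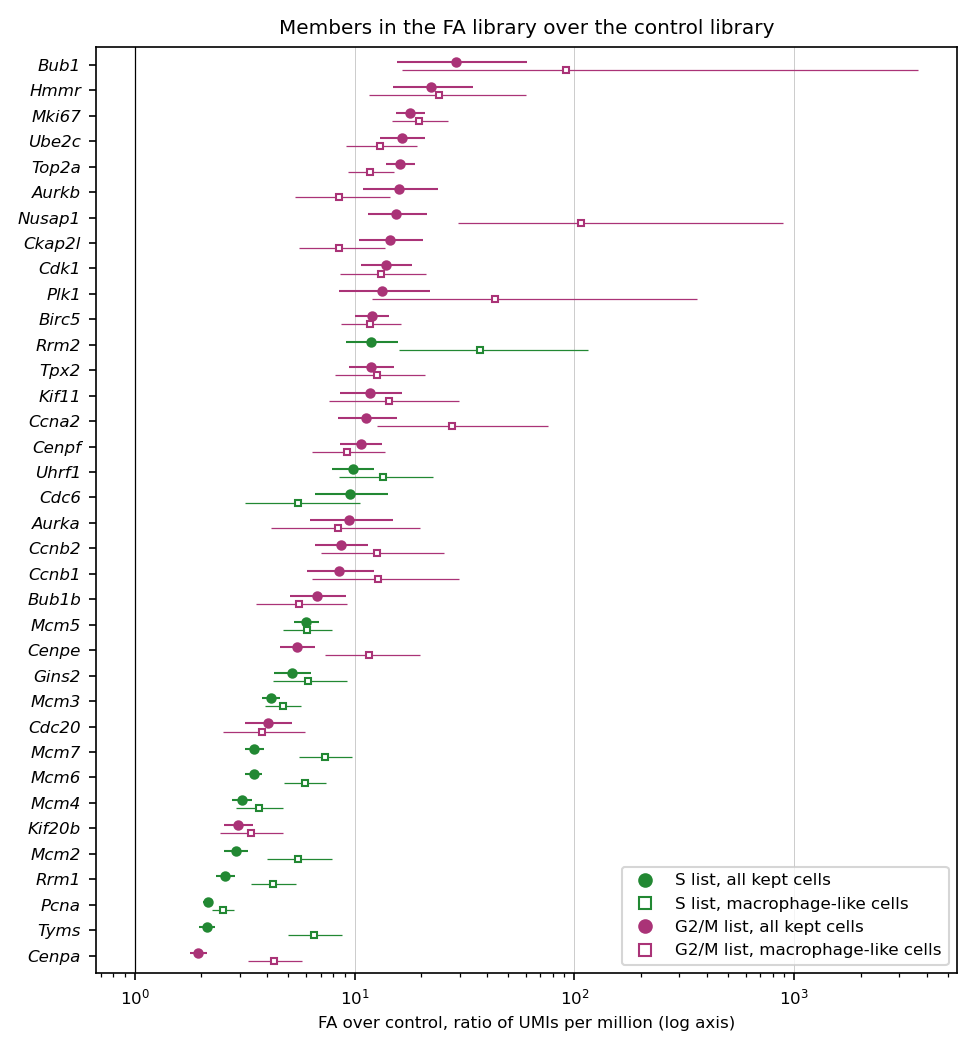
Ratio of the CPM in FA to that in control for each of the 36 members (log axis, bars are 95% counting intervals), in all kept cells (filled) and in macrophage-like cells (open). All 36 ratios lie above 1 in both sets of cells, from Cenpa at 1.95 to Bub1 at 29.0 over all kept cells.

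Members were not equally tied to cells that carry the rest of the program. For each member, the share of its FA UMIs that lay in cells with at least 3 UMIs of other G2/M members was taken; depending on the member left out, such cells were 6.68% to 7.49% of FA cells and held 14.5% to 15.9% of all FA UMIs. Birc5 was at the top with 91.8% (90.6 to 92.9), followed by Ccna2 at 91.0% and Ccnb1 at 90.6%. Among S members, Rrm2 stood with the mitotic genes at 86.1% (83.8 to 88.2). Uhrf1 and Cdc6 followed at 68.2% and 68.3%. The other S members lay between 38.8% (Mcm4) and 56.7% (Rrm1), with Pcna at 42.8%. Within the G2/M list, Cenpa (52.7%, 50.4 to 54.95) and Kif20b (63.7%) were the lowest, so more of their molecules lay in cells with few other mitotic transcripts.

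**Figure D2:**
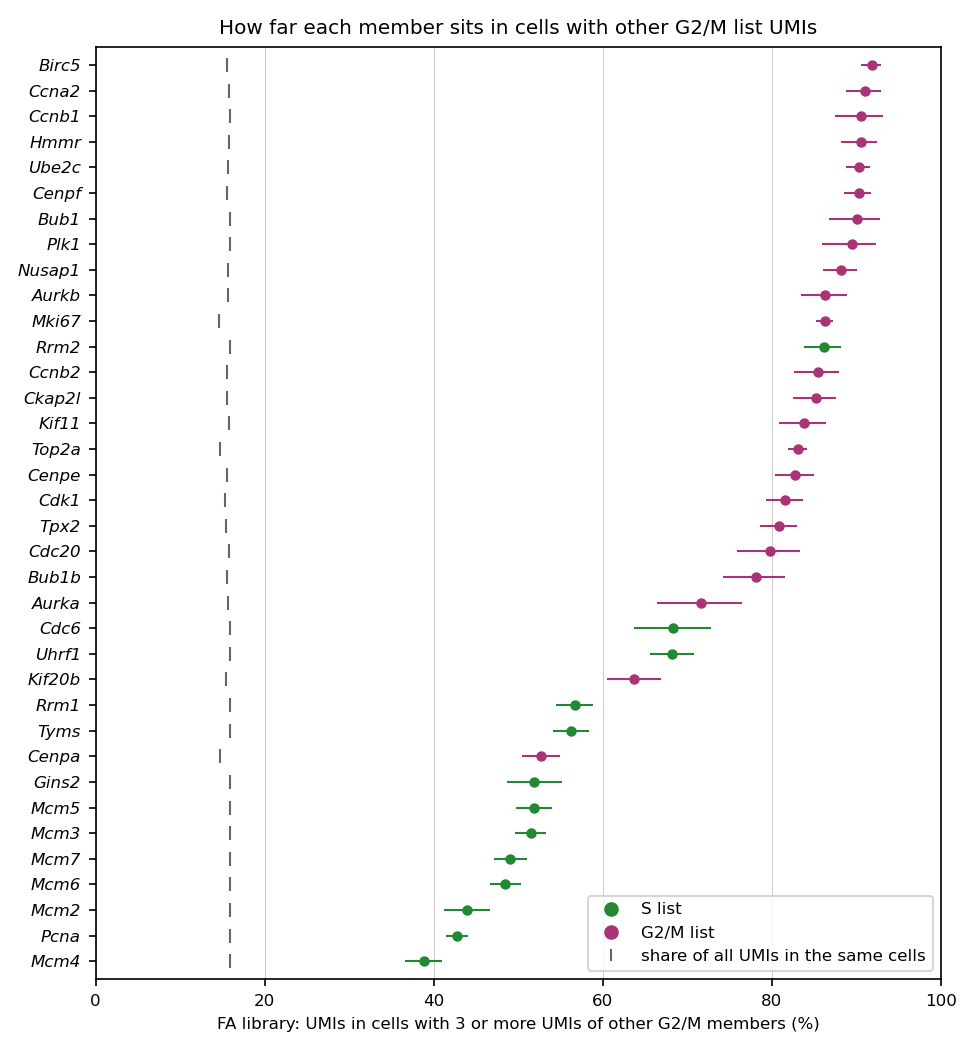
Share of each member's UMIs in the FA library that lay in cells with 3 or more UMIs of other G2/M members (percent, with 95% Clopper-Pearson intervals); grey marks give the share of all UMIs in those cells. The G2/M members fill the range from 71.6% to 91.8% apart from Cenpa and Kif20b, and Rrm2 is the S member among them.

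To compare cells of unequal depth, each cell was thinned to 1000 UMIs and counted when it kept 2 or more UMIs of a list; 228 control and 1900 FA cells were too shallow. The S list then marked 106 of 5579 control cells (1.90%, 1.56 to 2.29) and 827 of 11602 FA cells (7.13%, 6.67 to 7.61). The G2/M list marked 46 control cells (0.825%, 0.604 to 1.10) and 575 FA cells (4.96%, 4.57 to 5.37). Without thinning, the S shares were 22.6% and 24.8% and the G2/M shares 4.87% and 12.3%. Podocytes and neutrophils are cell types that do not normally divide in tissue and served as a background for free RNA. The G2/M list marked 2 of 772 FA podocyte-like cells (0.259%) and 0 of 367 FA neutrophil-like cells, where 3 counts, the limit that a count of 0 allows, would be 0.817%. Their S shares were 1.04% and 1.09%, and the median depths were 6458 and 1668 UMIs.

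Cell classes were named from marker genes after clustering. The clustering left out the members, the other cell cycle genes grouped by role below and histone genes. Genes outside those lists whose levels followed them, such as Hells and Aspm, were not left out, so clusters can still reflect the cell cycle. Of the classes, 13 had at least 50 cells in each library and were compared. The G2/M list was at least 1.5-fold higher in FA in 11 of the 13, all but dendritic-like and B cell-like cells, and the S list in 8. Without Cenpa, the G2/M ratio was 2.09 in B cell-like cells and 1.04 in dendritic-like cells. FA neutrophil-like cells, which served as background, had 86.8 CPM of the G2/M list. Of the 11 classes with a higher G2/M list, 5 did not exceed that level in FA (proximal tubule-like, podocyte-like, endothelial-like, urothelial-like and monocyte-like cells). FA podocyte-like cells, the other background, are among these 5 and had 31.8 CPM. Proximal tubule-like, endothelial-like, urothelial-like and monocyte-like cells of FA all exceeded that lower level. With likely doublets kept, 4 of the 8 S ratios were under 1.5 (proximal tubule-like, intercalated cell-like, dendritic-like and T cell-like cells). For that setting all cells were clustered and named anew. Class values with likely doublets kept therefore mix added barcodes with cells that changed class, and the 2 were not separated.

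**Figure D3:**
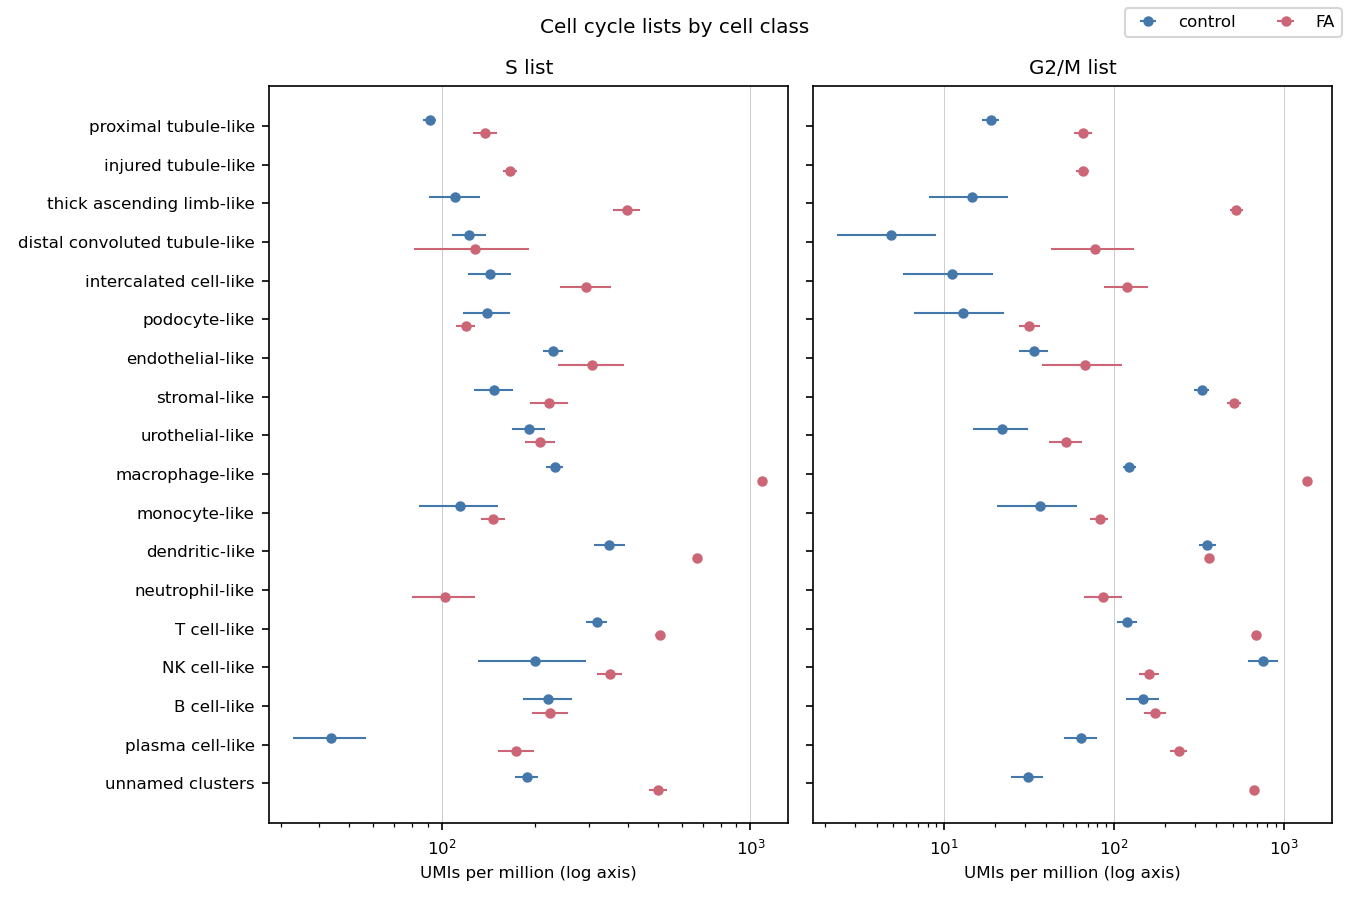
Summed CPM of the S list and the G2/M list in each cell class with 20 or more cells (log axis, bars are 95% Poisson intervals), control in blue and FA in red. Macrophage-like cells of FA have the highest level of both lists, 1092 and 1377 CPM.

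**Figure D4:**
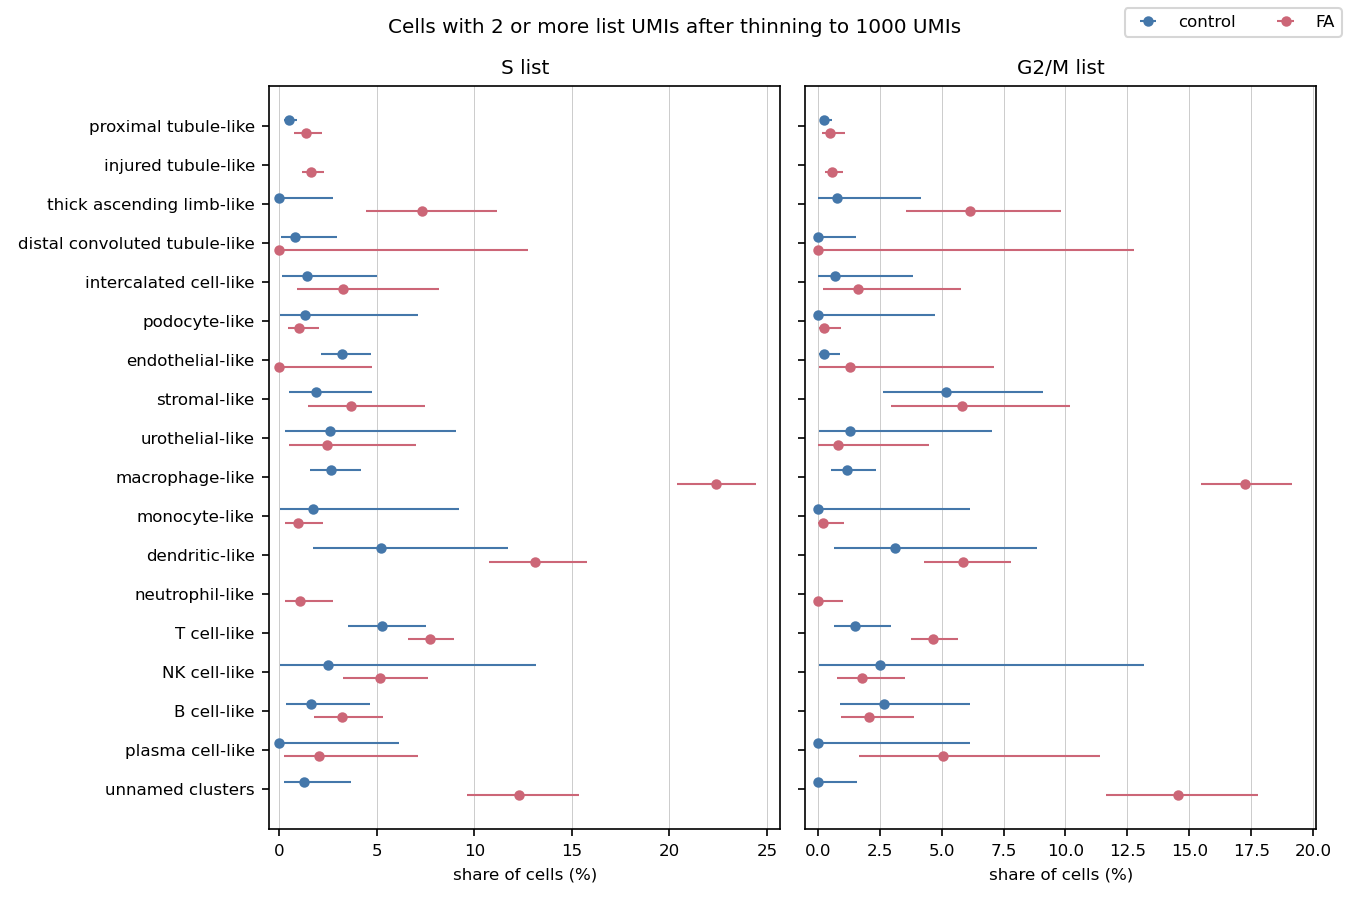
Share of cells in each class with 2 or more UMIs of a list after thinning to 1000 UMIs (percent, bars are 95% Clopper-Pearson intervals), control in blue and FA in red. The G2/M share of FA macrophage-like cells is 17.3%, and it lies between 0 and 0.584% in proximal tubule-like, injured tubule-like, podocyte-like, monocyte-like and neutrophil-like cells of FA.

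Among kept FA cells, macrophage-like cells carried most of the signal. With 23% of the UMIs of kept FA cells, they held 52.4% of the S UMIs and 63.0% of the G2/M UMIs. With likely doublets kept, they held 17316 of 37408 S UMIs, no longer most, and 24242 of 46656 G2/M UMIs. In the kept cells, the S list stood at 232 CPM in control and 1092 in FA (4.71-fold, 4.42 to 5.03). The G2/M list stood at 123 and 1377 CPM (11.2-fold, 10.3 to 12.2). The control G2/M level rests on few cells, as 1 of 705 held 161 of the 522 UMIs (30.8%). The interval counts UMIs and does not cover this. All 13 S and all 23 G2/M members were at least 1.5-fold higher, where 26.9% of the 12183 genes measured in this class were, and none was lower, where 21.5% of genes were. The G2/M list had 522 control and 17993 FA UMIs, so several members reached the UMI minimum for measured genes mostly through FA. For those members the gene shares are no fair comparison. Pcna had 79.9 CPM in control and 201 in FA, the smallest S ratio at 2.52, and Rrm2 the largest at 37.4 (15.9 to 115.5; 5 and 575 UMIs). Mki67 had 11.5 and 226 CPM (19.6-fold), Top2a 16.7 and 197 CPM and Birc5 10.1 and 119 CPM. Kif20b had the smallest G2/M ratio, 3.36, and Nusap1, a spindle protein, the largest, 108 (29.7 to 889.8), resting on 2 control UMIs against 662 in FA.

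After thinning, the G2/M list marked 8 of 672 control macrophage-like cells (1.19%) and 287 of 1663 in FA (17.3%, 15.5 to 19.2). Those 287 cells held 85.4% of the G2/M UMIs of the cells deep enough to be thinned. All 287 had a macrophage marker UMI, as had 99.6% of the other FA cells of the class, which was named from these markers. The summed marker level was 15864 CPM in the marked cells against 12005 in the others. The marked cells were also deeper (median 11359 against 6567 UMIs). Proximal tubule markers summed to 412 CPM in them, 297 in the other FA cells and 418 in control, and injured tubule markers to 241, 118 and 58.9 CPM. Monocyte markers summed to 422, 1681 and 652 CPM and podocyte markers to 592, 1095 and 1493 CPM in the same order, the control cells being those not marked; the part of such RNA was not tested. Of the FA cells marked by either list, 249 were marked by S alone, 164 by G2/M alone and 123 by both.

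The class was made of different clusters in the libraries, and the lists are given by cluster as a description. Control cells lay mostly in cluster 10 (695 cells, led by Mmp12, Mmp13 and class II genes), with 123 CPM of the G2/M list and 1.06% of thinned cells marked. FA cells lay in clusters 1, 20 and 32. Cluster 1 (1180 cells, led by Trem2 and Tgfbi) had 875 CPM of the S list and 736 of the G2/M list, with 8.56% of cells marked by G2/M. Cluster 20 (401 cells, led by Ccl7, Pf4 and Ccl12, with Mrc1 and C1qa) had 1498 and 2618 CPM, with 162 of 401 cells (40.4%) marked. Cluster 32 (123 cells, led by Pf4 and Fcrls, median 1275 UMIs) had 1547 and 1706 CPM. Mki67 was among the 10 leading genes of cluster 20, and Birc5 and Ube2c were among those of cluster 32. Within FA macrophage-like cells the G2/M list was thus higher than the S list in the Pf4 clusters and lower in the Trem2 cluster.

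T cell-like cells had the highest G2/M level among named FA leukocytes after macrophage-like cells, while dendritic-like cells exceeded them in S level and in both shares. The S list of T cell-like cells stood at 317 CPM in control and 508 in FA (1.60-fold, 1.46 to 1.75). Their G2/M list stood at 119 and 682 CPM (5.72-fold, 5.004 to 6.57), with 62 of the 225 control UMIs in 1 of 538 cells. At least 1.5-fold higher were 9 of 13 S members and 22 of 23 G2/M members, beside 16.9% of the genes measured, and none was lower, beside 16.3%. The G2/M list had 225 control and 4271 FA UMIs, so several members reached the UMI minimum for measured genes mostly through FA. For those members the gene shares are no fair comparison. Top2a had 18.0 CPM in control and 108 in FA, Mki67 11.7 and 104, and Cenpa 28.6 and 82.9. Pcna was 1.51-fold higher (73.7 and 111 CPM), Mcm4 1.41-fold (38.7 and 54.6) and Mcm6 0.921-fold (58.8 and 54.2, interval 0.741 to 1.15). Cdc6 had the largest S ratio, 6.03 (1.56 to 51.5), on 2 and 40 UMIs. Among G2/M members, Kif20b had the smallest ratio, 1.31, and Nusap1 the largest that could be formed, 49.7 (8.81 to 1977), on 1 and 165 UMIs; Aurkb had 0 and 60 UMIs. With likely doublets kept and the cells clustered anew, the G2/M list stood at 398 CPM in control and 800.2 in FA, 2.01-fold, and the S ratio was 1.41.

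Within FA T cell-like cells the list level differed by cluster. Cluster 2, with Cd8b1 and Cd8a, had 885 CPM of the G2/M list in FA and 145.5 in control, and cluster 6, with Icos, Tnfrsf4 and Ctla4, had 809 in FA and 124 in control. Cluster 2 held 387 control and 755 FA cells, and cluster 6 held 40 and 803. By share the G2/M list marked 5.41% of control and 6.31% of FA cells of cluster 6, and the S list 16.2% (6 of 37) and 6.81%. Cluster 14, with the genes of naive T cells Lef1, Tcf7 and Ccr7, had 120.2 CPM in FA and 48.3 in control. Of its 169 FA G2/M UMIs, 101 (59.8%) were Cenpa, and 89.1% of those lay in cells with no other G2/M UMI.

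In dendritic-like cells the S list was higher in FA and the G2/M list was not. The S ratio was 1.92 (349 and 671 CPM, 1.70 to 2.17), with 12 of 13 members at least 1.5-fold higher, beside 24.5% of the genes measured. Its G2/M list stood at 355 CPM in control and 364 in FA, a ratio of 1.02 (0.906 to 1.16), with 8 members higher, 5 lower and 9 between of the 22 measured, beside 16.1% of genes lower. Mcm3 had 33.3 and 87.8 CPM and Cdc6 2.38 and 13.8, while Pcna differed by 1.20-fold. Mki67 was 1.97-fold higher (34.5 and 67.7 CPM), whereas Cenpf had 40.4 CPM in control and 8.92 in FA, 0.221-fold (0.140 to 0.353). The control value rests on few cells: 1 of 97 control cells held 195 of the 299 G2/M UMIs. After thinning, 3 of 96 control cells (3.13%, 0.649 to 8.86) and 43 of 733 FA cells (5.87%, 4.28 to 7.82) were marked by G2/M, and 5.21% and 13.1% by S. With likely doublets kept, the class held 106 control barcodes and its G2/M level was 1266 CPM in control and 614 in FA, a ratio of 0.485, and the S ratio was 1.47. Dendritic markers moved too: they summed to 1504 CPM in control cells not marked by G2/M, 450.2 CPM in such FA cells and 247 CPM in the marked FA cells. Monocyte markers summed to 1052, 1667 and 1019 CPM in the same 3 sets. The 26.1% of FA cells without a dendritic marker UMI had 703 CPM of the S list, and those with one 661 CPM.

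The other leukocytes had low or unclear levels. B cell-like cells had 220.5 and 224 CPM of the S list and 148 and 175 CPM of the G2/M list (1.18-fold, 0.903 to 1.55). Cenpa made up 54 of their 82 control G2/M UMIs and 70 of 177 in FA. Without Cenpa their G2/M ratio was 2.09 (1.37 to 3.29), on 28 and 107 UMIs. Pcna was lower in FA (81.3 and 48.4 CPM, 0.595-fold). Of the 8 S members measured there, 4 were higher and 1 lower, beside 19.7% and 14.5% of genes. With likely doublets kept, their G2/M ratio was 0.521. Plasma cell-like cells had 63.8 and 242 CPM of the G2/M list (3.79-fold), with 35 of the 82 control UMIs in 1 of 58 cells, and 43.6 and 174 CPM of the S list (4.0-fold). All 5 S members and 3 of the 5 G2/M members measured were higher, Mki67 with 19.5 and 71.5 CPM, beside 50.3% of genes higher and 5.14% lower in these cells. Monocyte-like cells had 36.6 and 82.3 CPM of the G2/M list; 62 of their 264 FA UMIs were Ube2c, which had 0 in control, and 1 of 521 FA cells was marked after thinning. Of the 7 S members measured in them, 1 was higher and 2 were lower, beside 18.0% and 23.9% of genes, and Pcna had 53.6 and 68.3 CPM. Neutrophil-like cells, nearly all from FA, had 102 CPM of the S list and 86.8 CPM of the G2/M list. NK cell-like cells had 162 CPM of the G2/M list in FA; with 40 control cells they were too few to be compared, and 94 of the 98 control G2/M UMIs lay in 1 cell.

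Proximal tubule-like cells had 91.3 CPM of the S list in control and 138 in FA (1.51-fold, 1.37 to 1.67) and 18.8 and 65.9 CPM of the G2/M list (3.50-fold, 2.95 to 4.14). In control, 1 of 2126 cells held 65 of the 316 G2/M UMIs. Of the measured members, 8 of 12 S and 9 of 12 G2/M members were at least 1.5-fold higher, beside 18.2% of genes, and none was lower, beside 29.9%. Top2a had 0.655 and 7.93 CPM (12.1-fold), Mki67 2.03 and 6.88 CPM, and Cdc20 1.31 and 1.32 CPM. Among the S members, Mcm3 had the largest ratio, 4.95 (1.55 and 7.67 CPM), while Pcna differed by 1.08-fold (28.5 and 30.9 CPM). Tyms (329 and 119 UMIs) and Mcm7 (180 and 75 UMIs) were 1.61-fold and 1.85-fold higher. Only 5 of 2010 control cells (0.249%) and 6 of 1182 FA cells (0.508%, 0.187 to 1.10) were marked by G2/M after thinning, where the FA podocyte-like share was 0.259%. With likely doublets kept, the S ratio was 1.48. The class lay in clusters 11, 15, 16 and 25 in control and in clusters 3 and 19 in FA.

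Injured tubule-like cells, named from genes such as Havcr1 and Lcn2, were nearly all from FA (2527 cells against 12), and the largest of their clusters was led by Lars2, Gm47283 and Ttn. The label is weak: 1057 of the FA cells (41.8%) had no UMI of an injured tubule marker, and these had 78.6 CPM of the G2/M list, against 60.3 CPM in those with one. In FA cells not marked by G2/M, proximal tubule markers summed to 4023 CPM (a UMI in 96.6% of cells) and injured tubule markers to 1085 CPM (63.8%). These cells are not part of the proximal tubule-like ratios above. Injured tubule-like cells of FA had 166 CPM of the S list and 65.5 CPM of the G2/M list, and 12 of 2055 thinned cells (0.584%, 0.302 to 1.02) were marked by G2/M. By UMIs counted, their S list was led by Pcna (295), Mcm7 (280) and Tyms (262), and Mki67 had 70 and Top2a 48. Intercalated cell-like cells had 11.1 CPM of the G2/M list in control and 119.7 in FA (10.8-fold, 5.64 to 22.4), on 12 and 46 UMIs, of which 16 in FA lay in 1 cell. None of their G2/M members reached 20 UMIs, and 2 of the 5 S members measured were at least 1.5-fold higher, beside 25% of genes. Their S list stood at 143 CPM in control and 294 in FA (2.06-fold), and 1.43-fold with likely doublets kept.

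The largest class ratio belonged to cluster 18, whose leading genes are those of the thick ascending limb (Slc12a1, Umod and Egf) together with Lcn2 and Mt2. Its G2/M list stood at 14.5 CPM in control and 526 in FA, a ratio of 36.2 (21.8 to 65.2), on 15 and 507 UMIs, and its S list at 110.3 and 397 CPM (3.60-fold). The FA level rests on few cells: 1 of 332 held 53 of the 507 G2/M UMIs, and 77.4% held none. The 16 FA cells marked by G2/M after thinning held 75.0% of the G2/M UMIs of the cells deep enough to be thinned. All 12 S and all 11 G2/M members measured were higher, beside 25.1% of genes higher and 28.0% lower. With 15 control UMIs over the whole G2/M list, its members could reach the UMI minimum for measured genes only through FA. The count of 11 could therefore hardly have come out otherwise, and the gene shares are no fair comparison for it. Birc5 had 1 UMI in control and 60 in FA, Ube2c 1 and 56, and Mki67 0 and 50, while Rrm2 had 1 and 45. The data go against the label for the FA cells that carry the list. Thick ascending limb markers summed to 27592 CPM in control cells, 3135 CPM in FA cells not marked by G2/M and 91.7 CPM in the 16 marked ones, of which 12.5% had any such UMI. Injured tubule markers summed to 88.5, 2953 and 1650 CPM in the same 3 sets, and macrophage markers were at 0 in the marked cells. The FA cells with a thick ascending limb marker UMI (125 of 332) had 366 CPM of the G2/M list, and those without one 695 CPM. With likely doublets kept, the ratio was 3.88 (287 and 1114 CPM). Under other settings the class could not be compared: finer clustering left 13 FA cells in the class, a mitochondrial limit of 25% left 5, and coarser clustering gave no class of this name.

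Outside the tubule, single members held many of a list's UMIs in stromal-like and endothelial-like cells. Stromal-like cells had 329 CPM of the G2/M list in control, but 393 of the 430 UMIs were Cenpa. Nearly all of these, 389, lay in cluster 24, led by Ren1, Rgs5, Acta2 and Myh11, genes of renin cells and vascular smooth muscle. There 74.4% of the 164 control cells had a Cenpa UMI and 8.54% a UMI of any other G2/M member, and 88.7% of the Cenpa UMIs lay in cells with no other G2/M UMI. Cenpa stood at 300.2 CPM in control stromal-like cells and 156 in FA, 0.520-fold (0.426 to 0.632). Of the 7 G2/M members measured there, Cenpa was the 1 that was lower, beside 22.9% of genes lower. The other 6 were higher, beside 12.9% of genes. With 37 control and 319 FA UMIs over all G2/M members but Cenpa, those 6 reached the UMI minimum for measured genes mostly through FA. Their count could therefore hardly have come out otherwise, and the gene share is no fair comparison for it. Mki67 had 1 UMI in control and 46 in FA, and Top2a 1 and 43. The list ratio was 1.55 with Cenpa and 12.5 (8.87 to 18.1; 37 and 319 UMIs) without it, and 1 FA cell held 213 of the 460 UMIs of the full list. Of the 8 S members measured, 2 were higher (Tyms 3.08-fold and Rrm1 1.74-fold) and none was lower.

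Endothelial-like cells had an S list led by Mcm3 in control, with 181 of 693 UMIs. At 59.8 CPM this was the highest Mcm3 level of any control class compared, against 1.55 in proximal tubule-like, 28.3 in macrophage-like and 33.3 in dendritic-like cells, and the FA value was 31.6 CPM on 7 UMIs (0.529-fold, 0.210 to 1.11). Tyms had 29.4 and 85.9 CPM (2.92-fold). In the same class the G2/M list stood at 33.7 and 67.8 CPM, 47 of its 102 control UMIs being Cenpa, and 2 of 804 control cells were marked. Of the 7 S members measured, 3 were higher and 1 lower in FA, beside 18.1% and 24.1% of genes, with 80 FA cells in the class.

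Podocyte-like cells had 140.1 CPM of the S list in control and 119 in FA, 0.852-fold (0.707 to 1.03), and 12.9 and 31.8 CPM of the G2/M list on 12 and 202 UMIs. Of 9 S members measured, 1 was higher and 3 lower, beside 14.7% and 12.5% of genes; Rrm1 had 26.9 and 15.1 CPM and Mcm7 16.2 and 8.98 CPM. Urothelial-like cells had 191 and 209 CPM of the S list (1.09-fold, 0.925 to 1.29) and 22.0 and 52.5 CPM of the G2/M list. Pcna (55.6 and 42.1 CPM) and Tyms (25.6 and 23.3 CPM) had ratios whose intervals include 1. Of the 8 S members measured there, 2 were higher (Gins2 2.15-fold and Mcm3 1.61-fold), beside 10.7% of genes. The 4 unnamed clusters together had 671 CPM of the G2/M list in FA. Most of it came from cluster 4 (956 cells, led by Mir6236 and Slfn4, median 915 UMIs) with 867 CPM and 67 of 429 thinned cells marked, and macrophage markers had a UMI in 76.9% of the marked unnamed cells and 61.9% of the others. Podocyte markers had one in 65.4% and 66.4%, and proximal tubule markers in 64.1% and 62.5%.

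**Figure D5:**
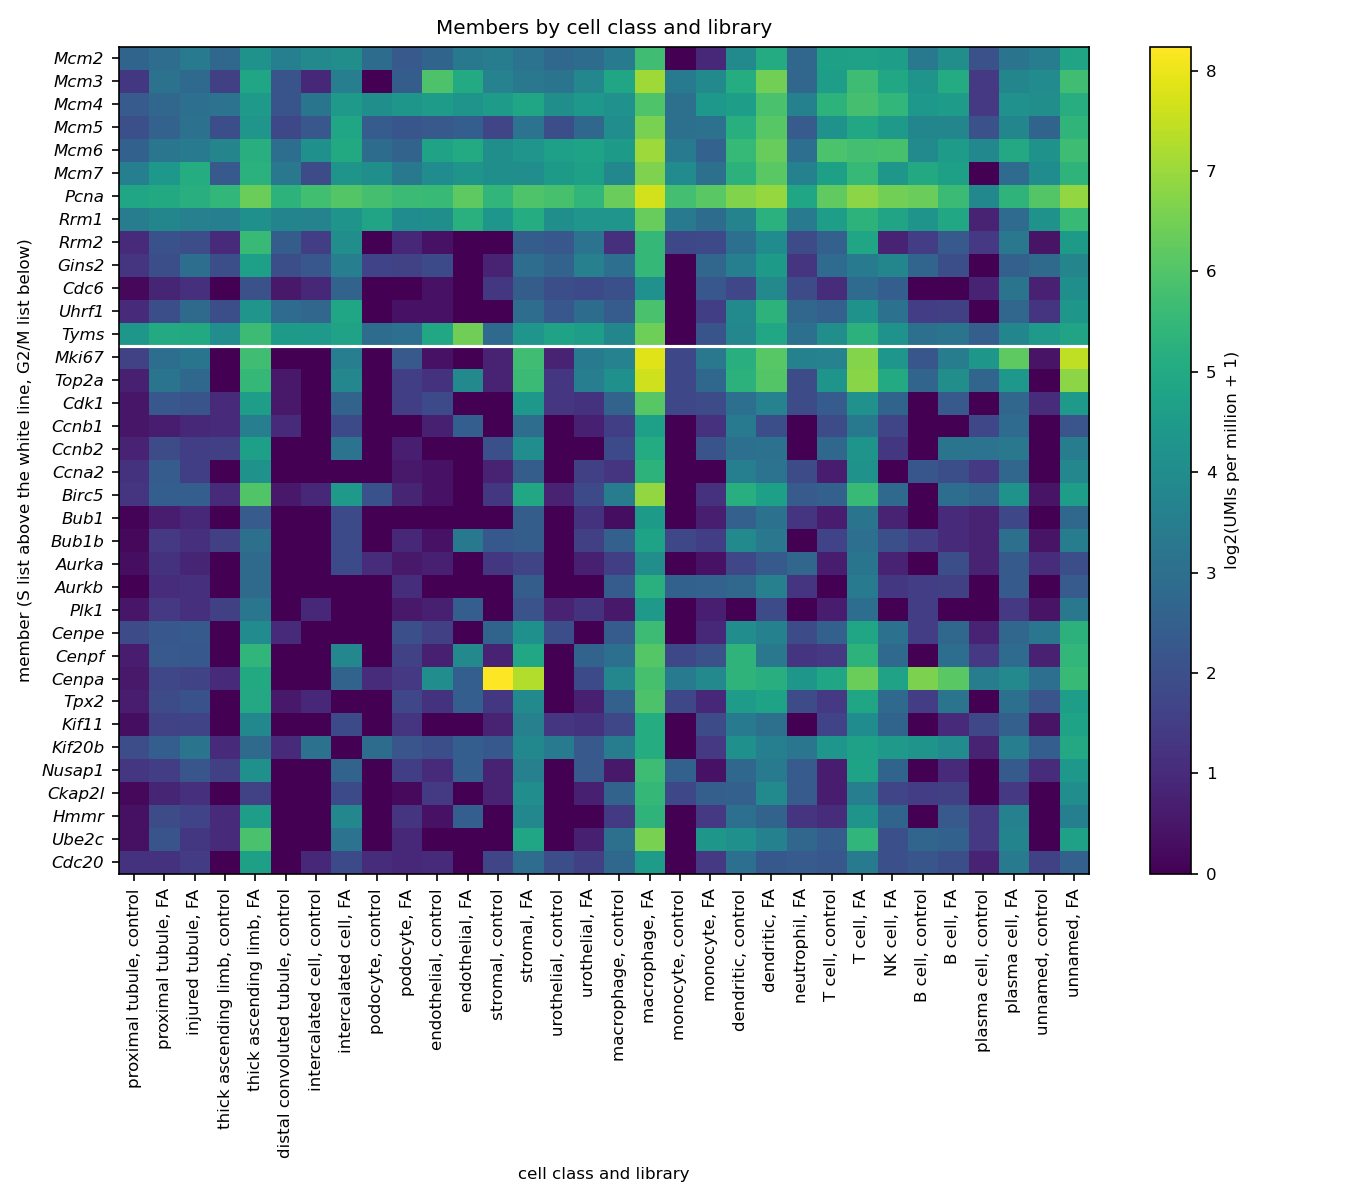
Level of each member, as log2(CPM + 1), in every class with 50 or more cells in that library; columns are class and library, and the white line divides the S list from the G2/M list. The FA macrophage-like column is bright over nearly all 36 members, whereas Cenpa in stromal-like cells and Mcm3 in control endothelial-like cells stand out as single members.

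The balance of the lists also differed between classes. Over all kept cells, S members made up 71.9% of member UMIs in control and 48.8% in FA. In control the share was 96.2% in distal convoluted tubule-like cells, 92.8% in intercalated cell-like, 82.9% in proximal tubule-like and 65.3% in macrophage-like cells. It was lower in FA in macrophage-like cells (44.2%, 43.7 to 44.8) and T cell-like cells (42.7% against 72.7% in control), and higher in dendritic-like cells (64.8% against 49.6%). In stromal-like cells it was 31.0% in control and 30.4% in FA, and without Cenpa 83.9% and 38.7%.

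Other cell cycle genes, grouped by role, were measured the same way over all kept cells, where 20.2% of all genes were higher and 30.2% lower. Licensing and firing genes were higher in 10 of 10 measured, from Cdc45 (9.07-fold) and Clspn (6.58-fold) to Orc6 (2.28-fold) and Tipin (2.0-fold). Polymerase and fork genes were higher in 16 of 18, led by Rad51ap1 (12.9-fold) and Dscc1 (9.44-fold). Rfc2, a subunit of the loader of the Pcna clamp, was at 1.31-fold. Condensin, cohesin and chromatin genes were higher in 7 of 9 (Ncapg 15.1-fold, Ncaph 6.65-fold, Anp32e 1.42-fold, Rad21 1.12-fold), and kinetochore, spindle and cytokinesis genes in 24 of 24 (Pbk 21.1-fold, Prc1 17.7-fold, Spc25 1.81-fold, Cks2 1.76-fold).

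The regulators upstream were mixed. Of the E2F, Rb and mitotic transcription factors, 7 of 10 were higher, with E2f8, a repressor of E2F targets, at 15.3-fold and Foxm1 at 10.01-fold, while Rb1 was at 1.33-fold and Rbl2 at 0.817-fold. Of the D and E cyclins, their kinases and the Cdc25 phosphatases, 5 of 11 were higher (Cdc25c, a phosphatase that activates Cdk1, 9.65-fold and Ccne2 6.74-fold), and Cdk4 (1.10-fold) and Ccnd1 (0.844-fold, 308 and 260.4 CPM) were not. In macrophage-like cells 10 of these 11 were higher, beside 26.9% of genes, and Cdk6 was at 0.769-fold. Among kinase inhibitors and arrest genes, 7 of 12 were higher, led by Cdkn1a, the p21 inhibitor (34.5 and 362 CPM, 10.5-fold), and Gadd45a (6.56-fold), while Cdkn2c (0.568-fold) and Cdkn2b (0.398-fold) were lower. Cdkn1a was also higher in macrophage-like cells, 103 and 786 CPM (7.60-fold, 6.91 to 8.38), where the mitotic members were highest. Of the anaphase-promoting complex genes 2 of 7 were higher, a share near that of all genes, its inhibitor Fbxo5 at 3.42-fold and its activator Fzr1 at 1.59-fold, while Anapc1 (0.861-fold) and Pttg1, securin (0.858-fold), were between.

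Across 30 class-by-library profiles, the genes outside these lists whose log2(CPM + 1) was most like that of the summed S list were Hells (Pearson r = 0.895), Exosc8 (0.876), Ran (0.861), Snrpd1 (0.860), Snrpa1 (0.858), Tubb5 (0.856), Topbp1 (0.855) and Ranbp1 (0.837). For the G2/M list they were Diaph3 (0.813), Zwilch (0.788), Prim2 (0.787), Cdca7 (0.779), Atad2 (0.778), Aspm (0.773), Snrpa1 (0.772) and Kif15 (0.770). Members themselves ranged from 0.595 (Tyms) to 0.910 (Pcna) against the S list and from 0.525 (Plk1) to 0.878 (Top2a) against the G2/M list. The profiles share 2 libraries and differ in depth, so these values are descriptions.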

How the data were processed

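Mouse kidney cells were captured with barcoded beads. The values deposited by the authors are UMI counts of 21855 genes in 28678 barcodes of 2 libraries, whole and at least 0 throughout. Per the submitters' processing notes, Seurat and mm10 were used; no source used here names the aligner, the counting tool, its strand setting or any version. The start of a barcode's name gave its library, and for control this rests on a letter.

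Cells had 200 or more genes, 500 or more UMIs and at most 50% mitochondrial UMIs, a limit passed by 34.9% of control and 15.7% of FA barcodes. Doublets were scored on simulated pairs, with cell cycle genes not excluded from the score, and were left out at 0.8% per 1000 barcodes. Clustering left out the members, the other cell cycle genes grouped by role, and histone, sex-linked and mitochondrial genes. It used 2000 variable genes, 30 components, 15 neighbours and Leiden resolution 1 (leidenalg 0.10.2, scikit-learn 1.9.0). The 36 clusters gave 17 named classes and 4 unnamed clusters. Levels have Poisson, ratios conditional binomial and shares Clopper-Pearson intervals (scipy 1.17.1); the calculations were checked on simulated data. Higher and lower mean a ratio of 1.5 or its inverse among genes with 20 UMIs over both libraries. UMIs were not scaled by gene length, so genes are not ranked by level.

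The members and lists were chosen with earlier results of these data known. Within a class, the members named are the 3 with most UMIs of each list and those with the highest and lowest ratio; of each wider list, the 2 highest and 2 lowest ratios, of which 1 gene is not reported here; outside the lists, the 8 genes with the highest correlation. Others were named after their values were seen. Leaving out Cenpa, macrophage-like cells or shared barcodes was added after the data were seen.

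By GENCODE vM21, 6 members (Ccna2, Cdc20, Gins2, Mcm7, Nusap1 and Ube2c) overlap a protein-coding gene on the other strand, so their counts may include its reads. Of the members, 5 had no RefSeq promoter entry (Aurkb, Mcm4, Gins2, Ccna2 and Tpx2).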

Additional observations from a re-analysis of the deposited data

Results flagged for a closer look

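Barcodes outside the comparisons also carried the members, above the level of the same kind of barcode in control. In the likely doublets left out, the S list stood at 438 CPM in FA and 263 in control, and the G2/M list at 779.8 CPM in FA and 515 in control. In barcodes outside the cell filter, the S list stood at 95.6 CPM in FA and 14.04 in control, and the G2/M list at 84.1 CPM in FA and 8.34 in control. After thinning, 9.56% of the left-out FA doublets and 4.78% of the control ones had 2 or more G2/M UMIs, against 4.96% and 0.825% of kept cells.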

How the results depend on the processing

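No paired analysis was possible because each group is 1 library. No value changed from called higher to called lower under any setting tried, and all 252 member ratios over all cells, under 7 alternatives, stayed above 1. Of these 252 member ratios, 126 moved beyond counting error. The log2 ratio of the S list, 1.67, was 1.504 with likely doublets kept, 1.59 at a mitochondrial share of at most 25%, 1.93 without the cell filter, 1.14 with cells weighed the same, 1.55 without mitochondrial UMIs in the total, 1.86 without Pcna and 1.07 without macrophage-like cells. That of the G2/M list, 3.09, was in the same order 2.33, 2.98, 2.59, 2.31, 2.97, 2.95 (without Mki67) and 2.23, and 3.49 without Cenpa. Leaving out shared barcodes moved neither beyond counting error. Of 267 class list ratios under all alternatives, 252 kept their direction and 40 moved beyond counting error.

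Shares of cells depended on the threshold. S list shares of control and FA cells were 4.97% and 16.5% thinned to 2000 UMIs, 22.6% and 24.8% not thinned, 15.3% and 24.4% at 1 UMI and 0.412% and 3.08% at 3 UMIs. The G2/M shares were 1.55% and 8.15%, 4.87% and 12.3%, 4.68% and 14.5%, and 0.197% and 3.38%. With doublets kept, G2/M shares were 1.14% and 5.75%. At the stricter mitochondrial limit the FA S share was 7.77%. Without the cell filter the S shares were 1.35% and 6.37%. Without Pcna the S shares were 0.825% and 5.07%; without Mki67 the G2/M shares were 0.430% and 4.45%, and without Cenpa 0.448% and 4.53%. Without macrophage-like cells the FA shares were 4.58% (S) and 2.90% (G2/M). Classes with the S list 1.5-fold higher numbered 4 of 14 with doublets kept, where principal cell-like cells were also compared, and 5 of 14 without the cell filter, against 8 of 13. The cause of these shifts was not tested. Depth limits classes with few UMIs: members under 20 UMIs were not counted.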
